A study of Mus musculus with 29 samples.

Results

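Genes for 10 stretch-responsive proteins of the Z-disc and its neighbouring structures were followed in mouse hearts through heart failure and recovery. They were taken by gene symbol from the deposited expression table and are Fhl1, Fhl2, Csrp3, Ankrd2, Ankrd23, Nrap, Xirp1, Xirp2, Flnc and Lmcd1. All 10 were found among the 29955 genes of the table, and all 10 had a mean of at least 0.5 FPKM (fragments per kilobase of transcript, scaled to the library's mapped fragments) and were tested with the 12759 genes that passed this filter.

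Messenger RNA was sequenced from hearts of male mice labelled C57BL6, which by the paper's methods were of the J substrain. The mice were 3 months old when the protocol began. Heart failure (HF) was induced for 5 weeks with 0.3 mg/ml L-NAME, which blocks nitric oxide synthases, and 1% NaCl in the drinking water, and from week 1 an osmotic pump that lasted 28 days also gave angiotensin II at 0.7 mg/kg/day. The HF groups were sampled at week 3 (2 libraries) and week 5 (3 libraries) of this protocol. The recovery groups had the same agents for the same 5 weeks, after which the water was returned to normal and the pump ran out. They were sampled at week 7 (2 libraries), week 9 (2 libraries), week 11 (3 libraries), week 13 (2 libraries) and week 19 (5 libraries), counted from the start of the protocol. Control week 19 (5 libraries) came from untreated mice of the age of the last recovery group, and it was therefore 14 weeks further on than HF week 5. Age and treatment cannot be told apart in the comparisons of HF with these controls. Age-matched controls of week 5 were not analysed here, since 5 columns bear their name and only 4 samples do. The table links columns to groups and not to single animals, so a library number below is only a name, and p-values measure the spread between libraries of a group.

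The Z-disc is the plate at each end of a sarcomere, where actin filaments of neighbouring sarcomeres are anchored by alpha-actinin and where titin begins. It carries force sideways to the cell membrane at costameres and endwise to the next cell at intercalated discs, and several of its proteins move between these sites and the nucleus when a muscle cell is stretched. LIM proteins, named for a zinc-binding domain, make up a large class of them: FHL1 and FHL2 consist of LIM domains and bind titin, CSRP3 (muscle LIM protein) sits at the Z-disc and LMCD1 is a LIM protein that acts with transcription factors. ANKRD2 and ANKRD23 are ankyrin repeat proteins that bind titin in the I-band. NRAP, the Xin actin-binding proteins XIRP1 and XIRP2, and filamin C (FLNC) work where myofibrils are built, repaired or attached to the membrane.

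Start-site windows of 9 of the 10 genes (14 windows) were matched in RefSeq, each with 250 bases before and 50 bases after a start site, on the build GRCm38.p6. They were searched on both strands for 3 motifs: the CArG box, which serum response factor binds, the MEF2 element, which MEF2 factors bind, and CATTCC, which TEAD factors bind. The CArG box and the MEF2 element both have a core of A and T, and no base of the windows below was matched by both. Shown here are the windows of the 3 genes that differed between HF week 5 and Control week 19 and that hold a CArG box or a MEF2 element, with the matched bases in capitals. The first Fhl2 window (chr1:43163912-43164211, minus strand) has a CArG box that begins 31 bases before the start site. The second Fhl2 window (chr1:43196712-43197011, minus strand) has a CArG box 96 bases and a MEF2 element 31 bases before it. The Xirp2 window (chr2:67445752-67446051, plus strand) has a MEF2 element 74 bases before the start site, and the Fhl1 window (chrX:56779433-56779732, plus strand) has a CArG box 102 bases before it. A further Fhl1 window had no match to the 3 motifs and is not shown.
Fhl2, first window: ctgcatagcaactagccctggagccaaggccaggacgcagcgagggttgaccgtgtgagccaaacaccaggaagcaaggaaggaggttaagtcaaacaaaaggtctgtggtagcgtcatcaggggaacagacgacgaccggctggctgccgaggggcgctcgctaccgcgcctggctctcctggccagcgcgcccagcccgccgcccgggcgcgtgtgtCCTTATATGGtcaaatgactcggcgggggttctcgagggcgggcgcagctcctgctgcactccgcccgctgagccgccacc
Fhl2, second window: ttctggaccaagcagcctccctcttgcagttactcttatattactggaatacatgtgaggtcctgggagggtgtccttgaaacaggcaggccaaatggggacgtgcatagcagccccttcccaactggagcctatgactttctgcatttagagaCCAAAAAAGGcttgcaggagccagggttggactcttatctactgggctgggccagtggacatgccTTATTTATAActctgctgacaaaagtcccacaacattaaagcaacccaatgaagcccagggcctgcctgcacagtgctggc
Xirp2: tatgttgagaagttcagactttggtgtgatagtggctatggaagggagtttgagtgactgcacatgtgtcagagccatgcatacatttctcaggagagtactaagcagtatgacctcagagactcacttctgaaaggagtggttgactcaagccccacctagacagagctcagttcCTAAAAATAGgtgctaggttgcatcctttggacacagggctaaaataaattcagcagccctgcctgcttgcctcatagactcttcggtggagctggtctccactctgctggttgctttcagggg
Fhl1: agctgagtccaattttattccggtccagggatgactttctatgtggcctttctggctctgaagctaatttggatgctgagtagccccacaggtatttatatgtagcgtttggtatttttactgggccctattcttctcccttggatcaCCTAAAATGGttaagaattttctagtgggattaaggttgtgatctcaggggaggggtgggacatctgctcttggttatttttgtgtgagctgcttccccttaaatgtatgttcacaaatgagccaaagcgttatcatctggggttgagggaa

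Over the 32851 windows of the RefSeq table, 1.63% held a CArG box, 3.19% a MEF2 element and 14.7% the letters CATTCC. Among the other genes, Lmcd1 had a CArG box 215 bases before its start site, and CATTCC stood in both windows of Ankrd23 and in both windows of Flnc, which overlap and hold the same site. Csrp3, Ankrd2 and Nrap had no match in their windows. A match is a description of letters and was not tested as a binding site.

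The libraries differed in ways that bear on these genes. The relative depth, read from the steps of the low FPKM values, ran from 0.73 to 1.40 over 23 libraries, and library 1 of HF week 3, which lacked these steps, listed 12816 genes above 0 against 16339 to 18091 in the others. The 10 most abundant genes took 14.6 to 18.8% of the summed FPKM in the HF week 5 and week 19 groups, 27.9 to 37.4% in recovery weeks 7 to 13, and 19.8 and 37.5% in the HF week 3 libraries. Genes that every ventricle uses were listed at 0 in whole groups: Myh6 in Control week 19, HF week 5 and Recovery week 19, Mb in both week 19 groups, and Myl2 and Actc1 in Control week 19. Myh6 was 106008 to 316195 FPKM in recovery weeks 7 to 13 and 37546 and 301793 FPKM in HF week 3. It thus entered the shares of the 10 most abundant genes in these groups only, and the shares are not alike between groups. The ventricular genes Tnni3, Tnnt2 and Myl3 were present in every library, with a lowest level of 3561 FPKM for Myl3 in HF week 5 library 1. The labels name the tissue as whole ventricle and the source as whole heart, and by the methods the apical portion was frozen. Myl7, the atrial regulatory light chain, stood at 1805 and 5773 FPKM in HF week 3 and at 18388, 152 and 6.16 FPKM in HF week 5 libraries 1, 2 and 3, against 0.166 to 1.12 FPKM in Control week 19 and at most 3.56 FPKM in recovery. The summed level of 8 atrial markers was 131 to 404 FPKM in Control week 19, 7997 to 14260 FPKM in HF week 3, 2258 to 82550 FPKM in HF week 5 and 207 to 818 FPKM in Recovery week 19, and of the 7 that could be tested 5 rose between Control week 19 and HF week 5. Nppa, 1 of the 8, was listed at 0 in both HF week 3 libraries, so their sums lack it. Of 7 fibroblast markers, 6 were higher in the same comparison, with summed levels of 348 to 691 FPKM in HF week 5 and 243 to 348 FPKM in Control week 19. Smooth muscle markers (3 of 7) and endothelial markers (3 of 6) were also higher, none of these lists had a lower gene there, no leukocyte marker of the 4 tested passed, 2 of 6 skeletal muscle markers were higher, and of 11 ventricular markers Pln was lower. The Mb, Myl2 and Actc1 values are listed at 0 in every control and cannot be read as a change. In whole tissue, fewer cells of a type and less RNA per cell cannot be told apart.

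Per length, the 10 genes covered a wide range of levels. Csrp3 was the most abundant, with a mean of 2312 FPKM over the 24 libraries, followed by Fhl2 with 1030 FPKM and Ankrd23 with 147 FPKM. Xirp2 (85.0 FPKM), Nrap (84.9 FPKM) and Fhl1 (46.9 FPKM) lay in between. Flnc (27.1 FPKM), Lmcd1 (25.2 FPKM) and Xirp1 (23.5 FPKM) were lower, and Ankrd2, which is mainly a gene of skeletal muscle, was close to the filter at 0.901 FPKM. The most abundant member was also among the steadiest: the highest library exceeded the lowest by 1.86-fold for Csrp3 and 1.84-fold for Lmcd1, against 4.54-fold for Fhl2, 4.43-fold for Xirp2 4.77-fold for Ankrd23 and 41.0-fold for Ankrd2, whose lowest library was at 0.0634 FPKM.

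**Figure D1:**
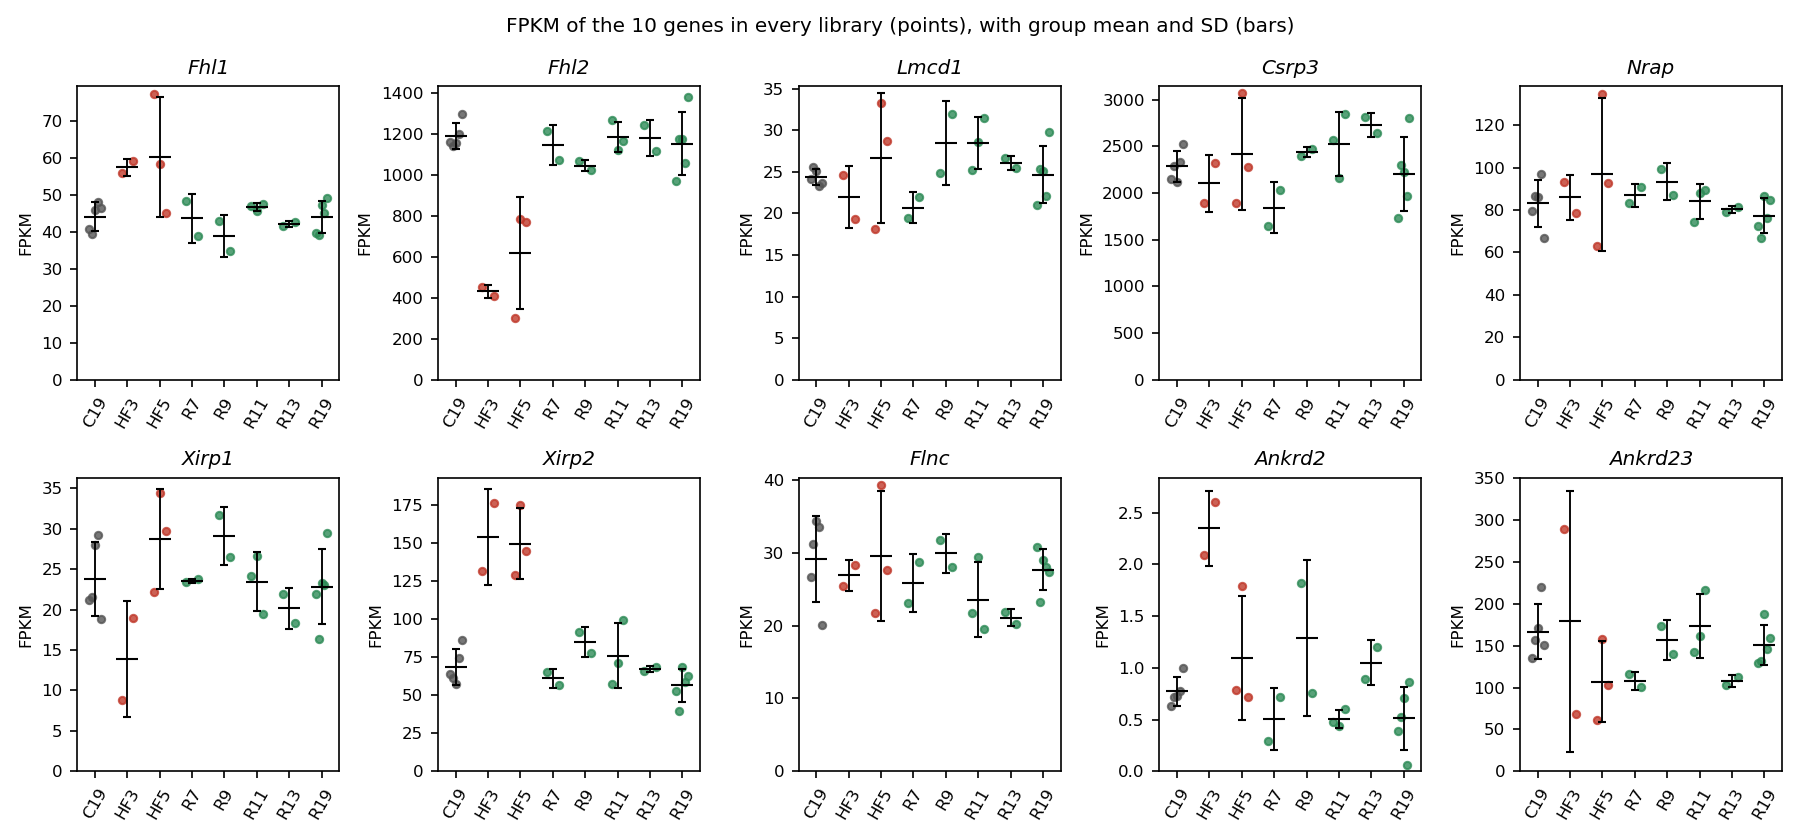
FPKM of each gene in every library (points, linear axis from 0), with the group mean and SD as black bars; C19 is Control week 19, HF3 and HF5 are HF weeks 3 and 5, and R7 to R19 are recovery weeks 7 to 19. Fhl2 drops to between 304 and 784 FPKM in the 5 HF libraries, Xirp2 climbs to between 129 and 177 FPKM in them, and the other genes overlap between HF week 5 and Control week 19.

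At HF week 5, Fhl2 fell below every control, Xirp2 rose above every control, and Fhl1 rose by less and with overlap. These 3 genes (2 higher, 1 lower) of the 10 passed an adjusted p of 0.05 in limma, and 24.0% of all genes tested passed in the same comparison. The groups did not overlap for 2 of the 10 genes, Fhl2 and Xirp2, against 29.5% of all genes tested. The median log2 fold change of the 10 genes was 0.12, and that of all genes tested was 0.04. Without HF week 5 library 1, 2 of the 10 genes passed (Fhl2 and Xirp2) and the count over all genes fell from 3062 to 1355. The results below concern single genes and not the list.

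Fhl2, a LIM protein that docks metabolic enzymes on titin and acts as a cofactor of transcription, was the most abundant of the genes that changed. In Control week 19 it was 1162, 1140, 1157, 1197 and 1298 FPKM in the 5 libraries, a mean of 1191 ± 63.5 (SD, n = 5). In HF week 3 it was 454.0 and 408.4 FPKM, and in HF week 5 it was 303.7, 784.5 and 768.2 FPKM. All 5 HF libraries were below all 19 libraries of the other groups, of which the lowest was 972 FPKM in Recovery week 19. The mean in HF week 5 was 618.8 ± 273 FPKM (SD, n = 3), or 52.0% of the control mean. On the log2(FPKM + 0.5) scale it fell by 1.07 from Control week 19 to HF week 5 (SE 0.215, 95% interval -1.52 to -0.62, limma adjusted p = 0.0018), a 2.09-fold lower level.

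Xirp2, a large actin-binding protein of the intercalated disc that is known to respond to angiotensin II, moved in the opposite direction. Its levels were 64.0, 61.2, 57.7, 74.5 and 86.4 FPKM in Control week 19 (mean 68.8 ± 11.7, SD, n = 5). They were 131.8 and 176.7 FPKM in HF week 3 and 129.4, 175.4 and 144.7 FPKM in HF week 5, where the mean was 149.8 ± 23.4 FPKM (SD, n = 3). Every HF library was thus above the highest library of any other group, which was 99.3 FPKM in Recovery week 11. The difference between HF week 5 and Control week 19 was 1.12 on the log2 scale (SE 0.186, 95% interval 0.73 to 1.51, limma adjusted p = 0.00042), a 2.18-fold higher level.

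Fhl1, the LIM protein that binds the elastic N2B region of titin, was higher with more spread. It was 40.6, 39.3, 45.8, 48.1 and 46.5 FPKM in Control week 19 (mean 44.1 ± 3.85, SD, n = 5). It was 55.8 and 59.0 FPKM in HF week 3 and 77.2, 58.3 and 45.1 FPKM in HF week 5 (mean 60.2 ± 16.1, SD, n = 3). Library 3 of HF week 5 lay within the range of the controls, so the groups overlapped. The log2 fold change was 0.42 (SE 0.137, limma adjusted p = 0.0329), and it was 0.22 (limma adjusted p = 0.294) without HF week 5 library 1, which no longer passed.

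**Figure D2:**
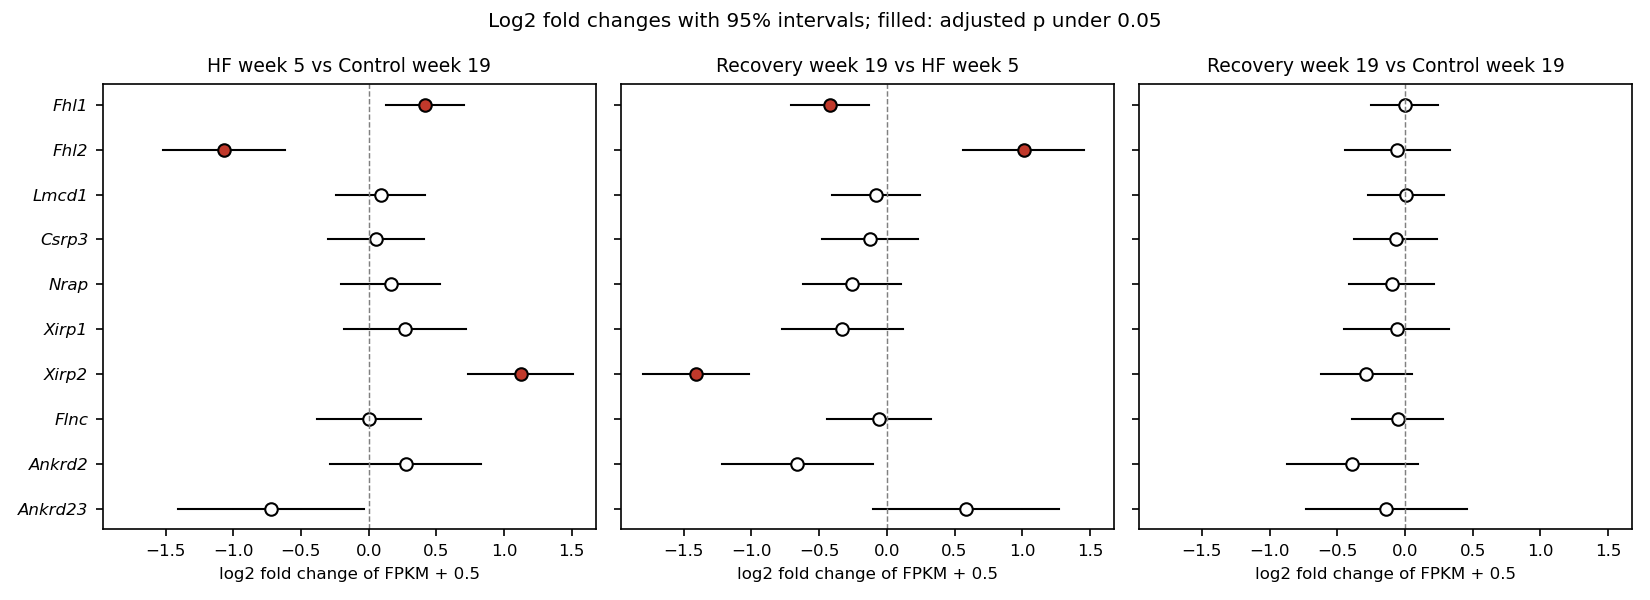
Log2 fold changes of FPKM + 0.5 (points, filled where the limma adjusted p is under 0.05) with 95% intervals (lines) for the 10 genes in 3 comparisons on 1 axis. Fhl1, Fhl2 and Xirp2 are filled in both comparisons with HF week 5, with opposite signs, and no gene is filled between Recovery week 19 and Control week 19.

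The 3 genes are set here beside the atrial signal of the HF libraries, whose part in the differences was not tested. In HF week 5 library 3, Myl7 was 6.16 FPKM and the 8 atrial markers summed to 2258 FPKM, of which Nppa made 2214 FPKM. Both Myl7 and the sum were above every control, which reached at most 1.12 and 404 FPKM. Nppa also made most of each control sum, at 81.1 to 344.5 FPKM. The sum therefore does not show whether the other markers were raised as a set in library 3. In this library Fhl2 was 768.2 FPKM and Xirp2 144.7 FPKM, both outside the range of the controls, and Fhl1 was 45.1 FPKM, inside it. In a fit without HF week 5 library 1 and the HF week 3 libraries, chosen after seeing the data, Fhl2 was lower than in Control week 19. Its log2 fold change was -0.62 (limma adjusted p = 0.0026). With library 3 as the only HF library, also chosen after seeing the data, the log2 fold change was -0.63 for Fhl2, 1.08 for Xirp2 and 0.04 for Fhl1. A single library has no spread of its own. The Fhl2 estimate was thus smaller without library 1, and that of Xirp2 stayed within its SE. Library 3 also had a fibroblast marker sum of 598.6 FPKM and an endothelial marker sum of 282.4 FPKM, above the highest controls of 348.0 and 204.7 FPKM, and the part of these markers in the differences was not tested.

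**Figure D3:**
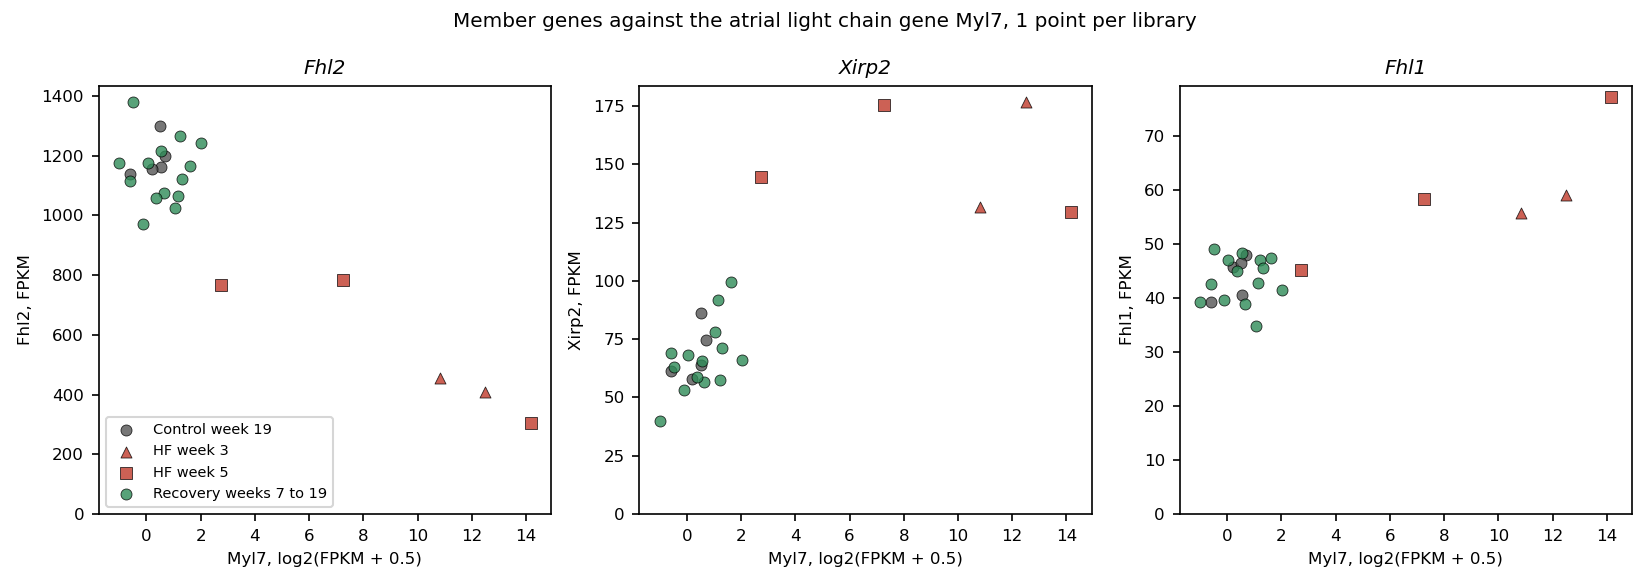
FPKM of Fhl2, Xirp2 and Fhl1 (linear axes from 0) against Myl7 on the log2(FPKM + 0.5) scale, 1 point for each of the 24 libraries, with symbols and colours for the groups. HF week 5 library 3, the square at a Myl7 level of 6.16 FPKM, stands apart from controls and recovery for Fhl2 and Xirp2 and among them for Fhl1.

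Ratios between members in 1 library do not depend on how libraries were scaled. Fhl2 against Csrp3 was 0.497 to 0.546 in Control week 19, 0.176 to 0.240 in HF week 3, 0.160 to 0.337 in HF week 5 and 0.493 to 0.561 in Recovery week 19. Fhl1 against Fhl2 was 0.0345 to 0.0401 in Control week 19, 0.0588 to 0.254 in HF week 5 and 0.0334 to 0.0425 in Recovery week 19. The ratio of Xirp2 to Xirp1 was 2.06 to 4.57 in Control week 19, 9.33 to 14.9 in HF week 3, 4.87 to 5.84 in HF week 5 and 2.14 to 2.93 in Recovery week 19. For all 3 ratios the HF libraries lay on 1 side of both week 19 groups, but the highest Xirp2 to Xirp1 ratio of Recovery week 11, 5.10, was within the range of HF week 5. These values carry no test.

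The ankyrin repeat genes gave less even values. Ankrd23 was 134.9, 156.9, 171.6, 220.1 and 151.0 FPKM in Control week 19, 289.5 and 69.0 FPKM in HF week 3, and 60.7, 157.8 and 103.2 FPKM in HF week 5. Its HF week 3 libraries held the highest and the second lowest of its 24 values. The log2 fold change in HF week 5 was -0.72 (SE 0.329, limma adjusted p = 0.118), with a 95% interval of -1.41 to -0.03. It passed when the HF week 3 group was left out of the fit (limma adjusted p = 0.0204) and without HF week 5 library 2 (log2 fold change -1.05, limma adjusted p = 0.0376), and it was -0.37 (limma adjusted p = 0.550) without HF week 5 library 1. Ankrd2 was 0.788, 1.79 and 0.715 FPKM in HF week 5 against 0.631 to 1.00 FPKM in Control week 19, and its log2 fold change of 0.27 did not pass (limma adjusted p = 0.492). At this level the added 0.5 FPKM makes the fold change too small.

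Csrp3, Lmcd1, Nrap, Flnc and Xirp1 did not pass in HF week 5 against Control week 19. Csrp3 was 1896, 3070 and 2282 FPKM in HF week 5 and 2116 to 2524 FPKM in Control week 19 (log2 fold change 0.06, 95% interval -0.30 to 0.41). Lmcd1 was 18.1, 33.3 and 28.8 FPKM in HF week 5, a spread around the tight control values of 23.3 to 25.6 FPKM (0.09, interval -0.24 to 0.41). For all 5 genes library 2 was the highest of the 3 HF week 5 libraries and library 1 the lowest. Nrap, which assembles new myofibrils, was 63.0, 134.7 and 92.7 FPKM in HF week 5 against 66.6 to 96.8 FPKM in Control week 19 (log2 fold change 0.16, interval -0.20 to 0.52). Flnc, an actin crosslinker renewed under strain, was 21.7, 39.3 and 27.6 FPKM against 20.1 to 34.4 FPKM (0.00078, interval -0.38 to 0.39). Xirp1 was 22.2, 34.4 and 29.7 FPKM against 18.9 to 29.2 FPKM (0.27, interval -0.18 to 0.72). The upper limits of these intervals, 0.39 to 0.72, leave room for rises of about the size seen for Fhl1. Nrap passed in 1 of 19 alternatives, the fit without HF week 5 library 1 and HF week 3, which was chosen after seeing the data. Its log2 fold change there was 0.43 (limma adjusted p = 0.0472). Without HF week 5 library 1 alone, the same log2 fold change did not pass (limma adjusted p = 0.0783).

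Earlier in the protocol, at HF week 3, 5 of the 10 genes differed from Control week 19 (3 higher, 2 lower), and so did 50.7% of all genes tested (6471 genes, or 3830 without HF week 3 library 1). Fhl2 was lower by a log2 fold change of -1.47 (SE 0.246, limma adjusted p = 9.94e-05) and Xirp2 higher by 1.16 (SE 0.213, limma adjusted p = 0.00022). Fhl1 was higher by 0.38, with both libraries above the controls (limma adjusted p = 0.0483). It did not pass without either HF week 3 library (limma adjusted p = 0.124 and 0.149), nor without Control week 19 library 1, 2 or 3 (0.0855, 0.0919 and 0.0575). Ankrd2 rose from 0.631, 0.723, 0.730, 0.777 and 1.00 FPKM in the controls to 2.09 and 2.60 FPKM, the 2 highest of its 24 values (log2 fold change 1.16, SE 0.306, limma adjusted p = 0.0041). Xirp1 was 8.86 and 18.9 FPKM in HF week 3 against 21.2, 21.6, 28.0, 29.2 and 18.9 FPKM in Control week 19 (log2 fold change -0.83, limma adjusted p = 0.0092). This fall rested on library 1, the library with few detected genes, since it was -0.30 (limma adjusted p = 0.419) without it. The Ankrd23 values took opposite signs with either HF week 3 library left out: -1.25 (limma adjusted p = 0.0104) without library 1 and 0.81 (limma adjusted p = 0.0454) without library 2. Both HF week 3 libraries carried atrial transcripts. In the same comparison 6 of 7 fibroblast markers were higher (summed levels of 732 and 734 FPKM, against 243 to 348 FPKM in the controls), as were 4 of 6 endothelial and 3 of 6 skeletal muscle markers, with 1 of each of the latter lists lower. Of 7 smooth muscle markers 2 were higher and 1 lower. Of 11 ventricular markers 4 were higher and 3 lower, with Myh6, Mb, Myl2 and Actc1 listed at 0 in every control. The part of these in the HF week 3 differences was not tested.

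Between HF week 3 and HF week 5, 1 of the 10 genes passed, with 21.4% of all genes tested. The count over all genes, 2732, rested on single libraries: it was 166 without HF week 3 library 1, 6743 without HF week 3 library 2, 957 without HF week 5 library 2 and 1345 without HF week 5 library 3. Xirp1 was higher at week 5 (log2 fold change 1.09, SE 0.269, limma adjusted p = 0.0129), and this call was lost without HF week 3 library 1 (0.57, limma adjusted p = 0.469) and without HF week 5 library 2 (0.96, limma adjusted p = 0.0516). Ankrd2 was lower at week 5 in every library, by a log2 fold change of -0.89 (limma adjusted p = 0.0607). For Fhl2 the difference was 0.40 (limma adjusted p = 0.277), and it was 0.85 (limma adjusted p = 0.00099) without HF week 5 library 1, in which Fhl2 was lowest and Myl7 highest.

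After the agents were withdrawn, Fhl2 and Xirp2 left their HF levels by the first recovery group. Of the 10 genes, 2 differed between Recovery week 7 and HF week 5 (1 higher, 1 lower), with 14.8% of all genes tested. The count over all genes, 1888, was 456 or 380 without either library of Recovery week 7 and 828 without HF week 5 library 1. It was 3064 without the group HF week 3. Fhl2 was 1215 and 1075 FPKM in Recovery week 7, a log2 fold change of 1.01 from HF week 5 (SE 0.268, limma adjusted p = 0.0177). It was 0.56 (limma adjusted p = 0.0356) without HF week 5 library 1, and it did not pass with either library of Recovery week 7 left out (limma adjusted p = 0.0864 and 0.129) or with only these 2 groups in the fit (limma adjusted p = 0.210). Xirp2 was 65.7 and 56.8 FPKM, a log2 fold change of -1.28 (SE 0.233, limma adjusted p = 0.0021). Fhl1 was 48.4 and 38.9 FPKM and its difference of -0.43 did not pass (limma adjusted p = 0.0912), except without HF week 5 library 3 (-0.62, limma adjusted p = 0.0172). Between these 2 groups the marker sums fell without overlap to 438 to 710 FPKM (atrial), 259 to 344 FPKM (fibroblast) and 168 to 186 FPKM (endothelial). Nppa made most of the atrial sums of Recovery week 7 (657.0 and 370.2 FPKM) and of HF week 5 library 3 (2214 of 2258 FPKM). The separation of the atrial sums therefore does not show that the other atrial markers fell as a set. Smooth muscle, skeletal muscle and leukocyte sums overlapped, and ventricular sums cannot be compared, since Myh6 was listed at 0 in HF week 5. The part of these markers in the differences was not tested.

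Recovery week 19, the latest point, was compared with HF week 5 and with controls of the same age, 2 comparisons that share libraries. Against HF week 5, 3 of the 10 genes differed (1 higher, 2 lower), with 24.2% of all genes tested, and the groups did not overlap for 2 of the 10, with 26.7% of all genes tested. The median log2 fold change of the 10 genes was -0.19, against -0.04 for all genes. In the same comparison 5 of 7 atrial, 4 of 7 smooth muscle, 3 of 7 fibroblast, 2 of 6 endothelial and 2 of 6 skeletal muscle markers were lower and none of these higher, and their part in the results was not tested. Fhl2 was 972, 1176, 1174, 1058 and 1379 FPKM in Recovery week 19 (mean 1152 ± 153, SD, n = 5), higher than in HF week 5 by a log2 fold change of 1.01 (SE 0.215, limma adjusted p = 0.0026), or 0.56 (limma adjusted p = 0.0088) without HF week 5 library 1. Xirp2 was 53.1, 39.9, 68.4, 58.8 and 63.0 FPKM (mean 56.6 ± 10.9, SD, n = 5), lower by a log2 fold change of -1.41 (SE 0.186, limma adjusted p = 7.89e-05). Both genes were separated from HF week 5 in every library. Fhl1 was 39.6, 39.3, 47.1, 45.0 and 49.1 FPKM, lower by a log2 fold change of -0.42 (SE 0.137, limma adjusted p = 0.0309) with overlapping groups. Its call was lost without HF week 5 library 1 (-0.22, limma adjusted p = 0.274) or library 2 (limma adjusted p = 0.0621), and without Recovery week 19 library 1 or 2 (limma adjusted p = 0.0598 and 0.0706).

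Of the genes that did not pass, Ankrd2 was lower by a log2 fold change of -0.66 (limma adjusted p = 0.0781; 0.0392 without Recovery week 19 library 5). Ankrd23 differed by 0.58 (limma adjusted p = 0.209), Xirp1 by -0.33 (limma adjusted p = 0.285) and Nrap by -0.26 (limma adjusted p = 0.293). Without HF week 5 library 1 the Nrap difference was -0.53 (limma adjusted p = 0.0311), and without library 2 it was 0.011 (limma adjusted p = 0.969).

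Against controls of the same age, no member passed the test in Recovery week 19: 0 of 10 were called in limma, beside 0.0235% of all genes tested. At an unadjusted p under 0.05 it was 0 of 10, beside 367 of the 12759 genes tested. Fhl2 differed by a log2 fold change of -0.06 with a 95% interval of -0.45 to 0.33, and Fhl1 by -0.0032 with an interval of -0.25 to 0.24. The Xirp2 mean was 82.4% of the control mean, a log2 fold change of -0.29 with an interval of -0.62 to 0.05. The intervals bound what could have been missed: a residual difference of Fhl2 as large as that at HF week 5 lies outside them, and a fall of Xirp2 by a log2 value of 0.62 does not.

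In the recovery weeks between, the mean of Recovery weeks 7, 9, 11 and 13 differed from Control week 19 in 0 of 10 members, beside 0.0705% of all genes tested. At an unadjusted p under 0.05 it was 0 of 10, beside 880 of the 12759 genes tested. The estimate was -0.07 for Fhl2 (interval -0.41 to 0.28), 0.07 for Xirp2 (interval -0.23 to 0.37) and -0.21 for Flnc (interval -0.50 to 0.09), on the log2 scale. The largest member estimate was that of Ankrd23, -0.31 (interval -0.84 to 0.22). The group means of Fhl2 were 1145 FPKM at week 7, 1045 FPKM at week 9, 1184 FPKM at week 11 and 1180 FPKM at week 13, and those of weeks 7, 11, 13 and 19 overlapped with Control week 19. The 2 libraries of week 9, at 1065 and 1025 FPKM, lay below the lowest control of 1140 FPKM. Xirp2 stood at 61.2, 84.8, 76.0 and 67.4 FPKM in the same order of weeks, and its 3 libraries of week 11 ran from 57.6 to 99.3 FPKM. Ankrd23 was 115.9 and 100.3 FPKM at week 7 and 102.6 and 113.0 FPKM at week 13, below the lowest control of 134.9 FPKM. Its libraries of weeks 9 and 11 lay within the range of the controls. Single weeks of recovery were not tested against the controls here. The share of all genes whose libraries of 1 week lay outside the range of the controls was not counted, so these separations are descriptions.

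The related genes were 56 genes of the Z-disc, costamere, LIM, PDZ-LIM and titin-binding classes with load markers, of which 51 were tested. In HF week 5, 23 of the 51 differed from Control week 19 (10 higher, 13 lower), or 45.1% beside 24.0% of all genes tested, with a median log2 fold change of -0.16 beside 0.04. The list was chosen with results of these data known, so this difference in share is a description. The 3 largest falls were of Trim55 (-2.31, SE 0.296, limma adjusted p = 6.33e-05), a muscle RING-finger protein associated with titin, Palld (-2.18, SE 0.380, limma adjusted p = 0.00063) and Mypn (-2.17, SE 0.345, limma adjusted p = 0.00031), both scaffolds of alpha-actinin. The largest rises were of the natriuretic peptide genes Nppa (4.81, SE 0.765) and Nppb (2.09, SE 0.415) and of Acta1, skeletal alpha-actin (2.18, SE 0.426). Nppa is also on the atrial list, was 42004 FPKM in HF week 5 library 1 and 2214 FPKM in library 3, and was listed at 0 in both HF week 3 libraries.

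Ankrd1, the cardiac ankyrin repeat protein and closest relative of Ankrd2 and Ankrd23, was 331.7 ± 52.2 FPKM (SD, n = 5) in Control week 19 and 768.7 ± 164 FPKM (SD, n = 3) in HF week 5. Its log2 fold change was 1.21 (SE 0.251, limma adjusted p = 0.0023), and in HF week 3 it was 1.45 (SE 0.288, limma adjusted p = 0.00043). In Recovery week 19 it was 348.0 ± 36.6 FPKM (SD, n = 5), lower than in HF week 5 by -1.13 (limma adjusted p = 0.0036). Beside it, the HF week 5 estimates of Ankrd2 (0.27) and Ankrd23 (-0.72) did not pass, and differences between the 3 relatives were not tested.

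Of the 51 related genes, 33 differed in HF week 3 against Control week 19 (10 higher, 23 lower), 11 between HF week 5 and HF week 3 (8 higher, 3 lower at week 5) and 12 in Recovery week 7 against HF week 5 (4 higher, 8 lower). In Recovery week 19 against HF week 5, 22 differed (11 higher, 11 lower). In this order the shares were 64.7% beside 50.7% of all genes tested, 21.6% beside 21.4%, 23.5% beside 14.8% and 43.1% beside 24.2%. None passed in limma between Recovery week 19 and Control week 19, with 0 at an unadjusted p under 0.05, beside 367 of the 12759 genes tested. For the mean of Recovery weeks 7 to 13 none passed, with 10 at an unadjusted p under 0.05, beside 880 of the 12759 genes tested.

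**Figure D4:**
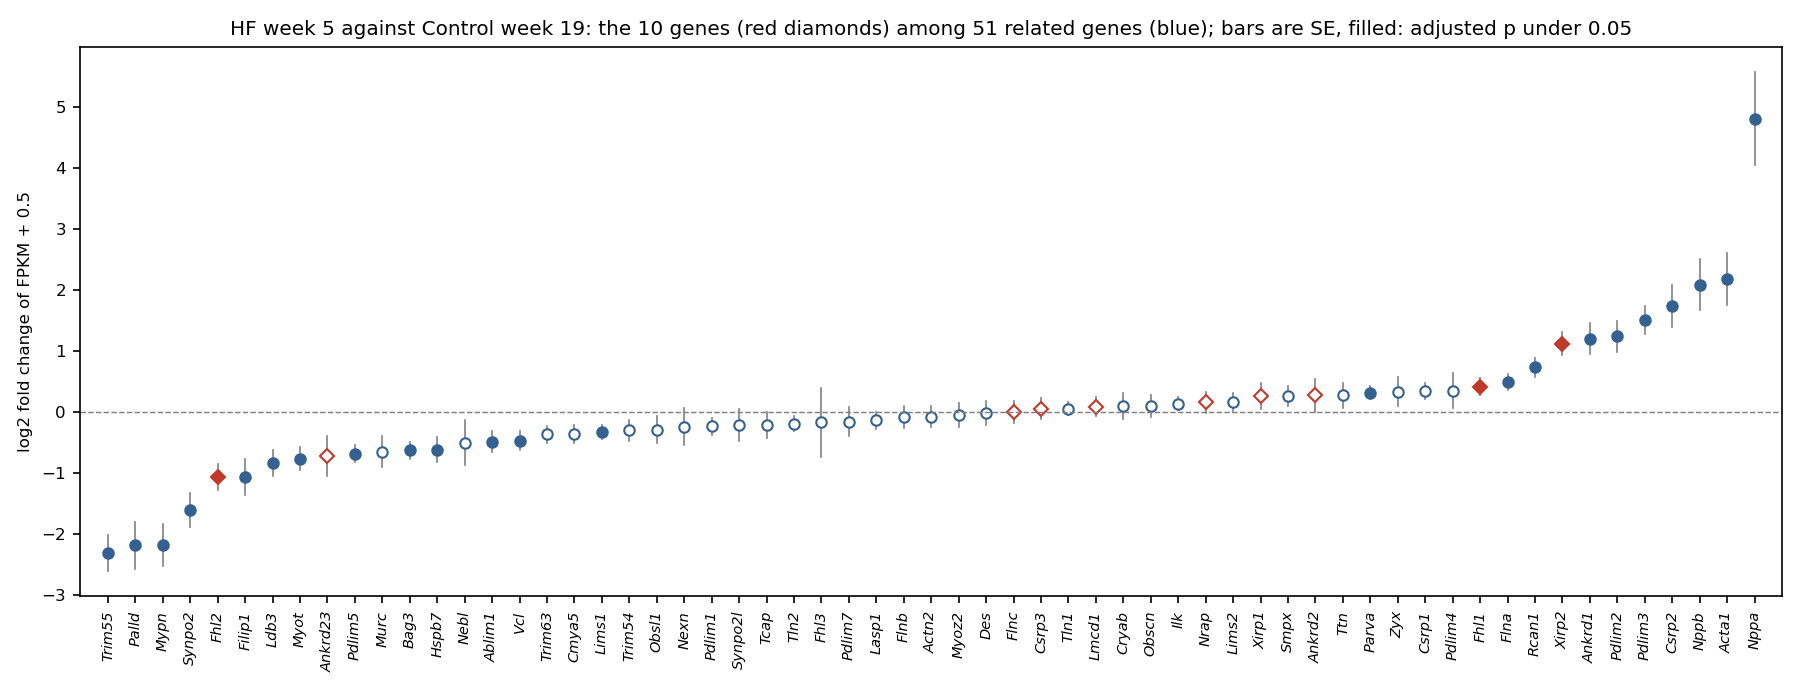
Log2 fold change of FPKM + 0.5 between HF week 5 and Control week 19 for the 10 genes (red diamonds) and the 51 related genes tested (blue circles), in order of size, with SE bars and filled symbols where the limma adjusted p is under 0.05. The estimates run from -2.31 for Trim55 to 4.81 for Nppa, with Fhl2 near the lower end and Xirp2 near the upper end.

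Over the 24 libraries, which share groups and differ in depth, the genes whose log2 levels ranked most like those of each member were found by Spearman's rho, given here as a description. Fhl2 was most like Uqcrfs1 (rho 0.92), the Rieske subunit of respiratory complex III, and Tmem70 (rho 0.89), an assembly factor of ATP synthase. Csrp3 was most like Psmb3 (rho 0.91), a proteasome subunit, and Gpx4 (rho 0.90). Flnc was most like Myo18b (rho 0.89) and Mast2 (rho 0.83), Lmcd1 like Gar1 (rho 0.89) and Twf2 (rho 0.84), and Xirp2 like 5730409E04Rik (rho 0.90) and Rab22B (rho 0.89). The nearest genes were less close for Fhl1 (2500003M10Rik, rho 0.81, and Gpatch3, rho 0.77), Nrap (Rrp12, rho 0.78, and Pacsin3, rho 0.76) and Ankrd23 (Ppp1r3c, rho 0.77, and 2810453I06Rik, rho 0.72). Ankrd2 was most like Chid1 (rho 0.82) and 0910001L09Rik (rho 0.81), and Xirp1 like Dok7 (rho 0.77) and Rpl13a-ps1 (rho 0.77).

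Reads could be shared between genes at some of these loci. In GENCODE vM21 (GRCm38) the body of Xirp1 overlaps Cx3cr1, a macrophage receptor gene on the same strand, that of Ankrd23 overlaps the protein-coding gene Gm42417 and that of Fhl1 the small nuclear RNA gene Gm23258, both on the same strand, that of Nrap overlaps Habp2 and that of Fhl2 the pseudogene Gm8210 on the other strand, and Xirp2, Nrap and Lmcd1 each have an antisense gene. Lmcd1 also overlaps Gm44193, a locus of unclassified type on its own strand. Csrp3, Ankrd2 and Flnc overlap no annotated gene. These overlaps are of whole gene bodies, introns included, on a build other than that of the alignment, and shared exons were not looked for. The sources used here do not say whether strand was used in counting. Whether any counted reads were shared is therefore not known.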

How the data were processed

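The authors aligned paired-end reads of poly(A)-selected RNA to the mouse genome MGSCv37 (mm9) with TopHat and deposited expression as FPKM values per gene computed with Cuffdiff, so read counts and depth per library are unknown beyond the relative steps given above. Of the table's per-sample columns, 24 in 8 groups were used and 5 were not used here. Recovery week 9 has 2 columns for 3 labelled samples. The 12759 of 29955 genes whose mean reached 0.5 FPKM were fitted as log2(FPKM + 0.5) in limma 3.58.1 (R 4.3.3), with 1 mean per group, a spread shared by all groups (16 residual degrees of freedom) and an intensity trend. Tests were two-sided and called at a Benjamini-Hochberg adjusted p under 0.05 over all genes tested. The script was tested on simulated data. The 10 genes and all lists were chosen with earlier results of these data known. Named genes were the 10 members, the 2 genes most like each, Ankrd1, and the related genes with the 3 largest rises and falls among those called in HF week 5. Alternatives changed the pseudocount, filter, scaling, groups fitted, variance model and call rule, or left out a library. No pair of libraries held identical values in more than 0.00919% of the genes above 1 FPKM.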

Additional observations from a re-analysis of the deposited data

How the results depend on the processing

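The Fhl2 and Xirp2 differences of HF week 5 from Control week 19 and from Recovery week 19 passed with the same sign in all 19 alternatives run for each, with log2 fold changes of -1.30 to -0.62 (Fhl2) and 1.00 to 1.22 (Xirp2) against the controls, and of 0.56 to 1.24 (Fhl2) and -1.51 to -1.29 (Xirp2) in Recovery week 19 against HF week 5. Fhl1 passed in 10 of 19 against the controls and was lost with no filter, median centring, only the groups compared and several left-out libraries. The number of members called was 2 to 4 in HF week 5 against Control week 19 and in Recovery week 19 against HF week 5, beside 3 in each. In HF week 3 against Control week 19 it was 3 with only the groups compared. In that comparison Fhl1 passed in 6 of the 15 alternatives run for it and Xirp1 in 13 of 15. Ankrd23, not called in the main fit, passed in 2 of 15. In HF week 5 against HF week 3 it was 2 at an unadjusted p under 0.05, with a pseudocount of 1 and with quantile normalization, 0 with only the groups compared, and 0 to 3 with 1 library left out. In Recovery week 7 against HF week 5 it was 1 with only the groups compared and in the fit without HF week 5 libraries 1 and 2 and HF week 3, an alternative chosen after seeing the data, and 1 to 3 with 1 library left out. Signs turned for estimates that did not pass. In HF week 5 against Control week 19, Csrp3 was -0.0037 with median centring and -0.24 with quantile normalization, Flnc was -0.059 with median centring, and in the fit that kept only HF week 5 library 3 Ankrd2 was -0.060 and Flnc -0.052. With 1 library left out, the same comparison gave -0.13 to 0.22 for Csrp3, -0.018 to 0.44 for Ankrd2, -0.11 to 0.43 for Nrap, -0.22 to 0.20 for Flnc and -0.090 to 0.34 for Lmcd1. Nrap ran from -0.53 to 0.011 in Recovery week 19 against HF week 5. In Recovery week 19 against Control week 19, Fhl1 was 0.0065 with quantile normalization and -0.044 to 0.036 with 1 library left out, and Fhl2 was -0.12 to 0.0020. Ankrd23 ran from -1.25 to 0.81 in HF week 3. The cause of these shifts was not tested. Over all genes tested, 1355 passed in HF week 5 against Control week 19 without HF week 5 library 1, in place of 3062 (1545 in place of 3092 for Recovery week 19 against HF week 5), and with median centring 1116 were higher and 1869 lower, in place of 1482 and 1580. With only the groups compared, 8 genes passed between HF week 5 and HF week 3 319 between Recovery week 7 and HF week 5, 4192 in HF week 3 against Control week 19 and 110 for the mean of Recovery weeks 7 to 13. With no filter the first 2 of these counts were 1402 and 1152. No paired analysis was possible because the columns carry no animal identity. FPKM values keep no absolute depth, which limits the precision for Ankrd2.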

Other observations

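The 10 genes did not rank alike over the 24 libraries. The lowest Spearman's rho between members was -0.46, for Fhl2 with Xirp2, and the highest were 0.68 for Csrp3 with Lmcd1, 0.61 for Ankrd2 with Xirp2, 0.59 for Xirp1 with Flnc and 0.57 for Fhl1 with Xirp2. Csrp3 and Fhl2, the most abundant members, had a rho of 0.35. The libraries share groups, so these values are descriptions.

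In Recovery week 9, Ankrd1 was 654.7 and 765.2 FPKM, a mean of 214% of the control mean, and Nppb was 797.2 and 1179 FPKM, 272% of it. Xirp2 was at 123% and Fhl2 at 87.8% of their control means there, with both Fhl2 libraries below the lowest control. The mean of Recovery weeks 7 to 13 for Ankrd1 was a log2 value of 0.61 above Control week 19 (SE 0.193, limma adjusted p = 0.477, unadjusted p = 0.0052). These genes and this week were picked after their values were seen, and week 9 alone was not tested. The share of all genes separated from the controls in that week was not counted.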
